A study of Arabidopsis thaliana and Brassica rapa with 28 samples.

Results

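The genes described here are the nuclear genes for the light-harvesting antenna proteins and for the subunits of the 2 photosystems of Arabidopsis thaliana. They were taken by gene identifier: 40 identifiers make up the set, beside 33543 genes in the Arabidopsis tables, and of these 40, 5 are LHCA genes, 14 are LHCB genes, 12 encode subunits of photosystem I (PSA) and 9 encode subunits of photosystem II (PSB). A row was read for 39 of them, and PSAD2 is not analysed here. LHCB1.3 has an estimate in 1 group alone, so 38 genes were compared.

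RNA sequencing was done on 16 Arabidopsis libraries, 4 for each of 4 groups, among 28 samples in all. The 12 Brassica libraries are not analysed here. The seedlings were 5 d old, had been raised in continuous W light, were harvested whole and were given 4 h of shade (little red relative to far-red light) or were kept in W light. The groups are CER6pro>>axr3-1 plants in shade, CER6pro>>axr3-1 plants in W light, control plants in shade and control plants in W light. In the CER6pro>>axr3-1 plants the CER6 promoter, which is known for its activity in the epidermis, drives axr3-1 fused to mCit, and axr3-1 encodes a stabilised Aux/IAA repressor of auxin signalling. The control plants were hemizygous for UAS::axr3-1::mCit, so they carried the axr3-1 transgene without its driver. Where the transgene acted was not measured here, and the RNA came from the whole seedling.

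The level of AXR3, whose reads come from the native gene and the transgene together, was 112 FPKM in CER6pro>>axr3-1 shade, 113 FPKM in CER6pro>>axr3-1 W, 37.1 FPKM in control shade and 47.1 FPKM in control W. FPKM is the number of fragments scaled to the length of the gene and the size of the library, and the tables hold 1 pooled FPKM for each group, with no value per library. Of the markers for the parts of a seedling, 11 of 11 root markers and 7 of 7 mesophyll and cotyledon markers were detected. The mesophyll markers summed to 31314 FPKM in CER6pro>>axr3-1 shade, 35806 FPKM in CER6pro>>axr3-1 W, 25112 FPKM in control shade and 31992 FPKM in control W. Of these sums RBCS1A alone held 19471.6, 20076.5, 15646.7 and 18210 FPKM in the same order of groups. The root markers summed to 286, 218, 167 and 165 FPKM in the same order of groups, of which IRT1, an iron transporter, held 130, 52.0, 9.78 and 1.42 FPKM. None of the 11 root markers was called by Cuffdiff between the genotypes, with 0 at an unadjusted p under 0.05, and their median log2 fold, CER6pro>>axr3-1 over control, stood at -0.01 for W light and at 0.06 for shade.

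Photosystem II takes electrons from water and passes them to the cytochrome complex, and photosystem I takes them on to ferredoxin. LHCB proteins bind chlorophyll and feed excitation mainly to photosystem II, LHCA proteins feed it to photosystem I, and the reaction centres themselves are encoded in the plastid. The nuclear genes studied here, long used as markers of light-regulated transcription in green tissue, supply the antenna and the peripheral subunits. The plastid genes for the core subunits are not analysed here.

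Several LHCB genes are near-identical copies, and the reads were single-end 50-base reads. Shared sequence may therefore limit how well a copy can be measured by itself, which was not tested. Of the 40 genes, 8 share at least 1 exact 50-base window of their transcript with another gene in the RefSeq annotation of TAIR10.1. The windows shown next are a stretch of the coding sequence of the 5 LHCB1 genes, from RefSeq TAIR10.1, read 5′ to 3′ in the sense of the gene. They are shown because a read from this stretch cannot be assigned to 1 of the first 3 genes. The capital marks the base that differs from LHCB1.1.
LHCB1.1, coding bases 640 to 689: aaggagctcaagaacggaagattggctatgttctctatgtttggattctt
LHCB1.2, coding bases 640 to 689: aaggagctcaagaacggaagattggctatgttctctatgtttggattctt
LHCB1.3, coding bases 640 to 689: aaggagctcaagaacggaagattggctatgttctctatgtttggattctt
LHCB1.4, coding bases 637 to 686: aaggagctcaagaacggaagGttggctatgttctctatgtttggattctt
LHCB1.5, coding bases 634 to 683: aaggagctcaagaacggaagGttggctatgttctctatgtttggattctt

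The window was the same in LHCB1.1, LHCB1.2 and LHCB1.3, which lie together on chromosome 1. The copies LHCB1.4 and LHCB1.5 lie side by side on chromosome 2 and had the same window as each other, with 1 mismatch to LHCB1.1. Across whole transcripts, the share of 50-base windows found in another gene was 20.5% for LHCB1.1, 10.6% for LHCB1.2, 17.0% for LHCB1.3, 13.7% for LHCB1.4 and 17.3% for LHCB1.5. For the LHCB2 genes it was 22.7% for LHCB2.1 and 28.2% for LHCB2.2, which share these windows with each other. LHCA2 shared 8.8% of its windows with AT5G28450. No window of the other 32 genes was found in another gene.

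The standard error of a log2 fold followed from the authors' statistic and is given here with each fold. For shade over W in control plants it ranged over 0.343 to 1.09 in the 7 measured genes with shared windows, and over 0.193 to 0.564 in the 31 genes without. The plot of shared windows against the standard error shows that LHCB1.1, LHCB1.2 and LHCB1.5 had the widest errors, while LHCB1.4, LHCB2.1, LHCB2.2 and LHCA2 lay within the range of the genes without shared windows. In addition, 12 of the genes, among them LHCB1.1 and LHCB1.2 in a single locus, lie in a locus of the tables that holds at least 1 other gene. The libraries were stranded, and no source used here says whether the counting used strand, so reads of overlapping genes may not be separated for these 12.

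**Figure D1:**
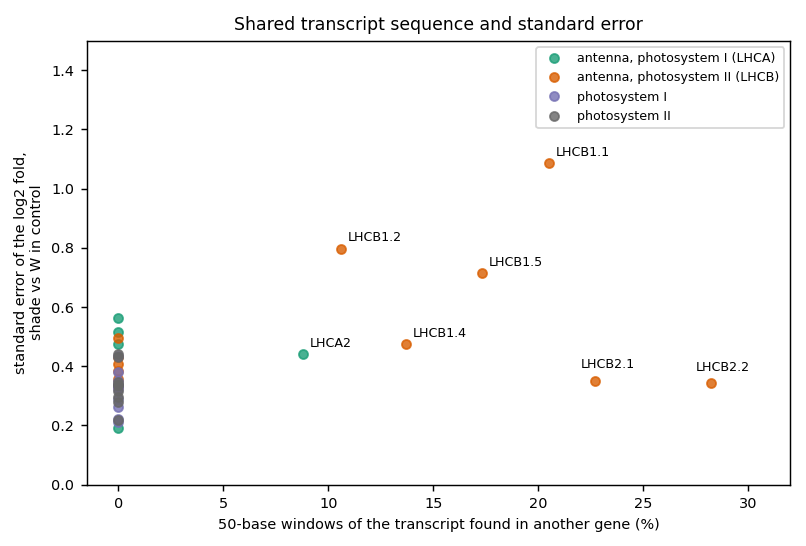
Share of the 50-base windows of each gene's transcript that occur in another gene (x axis, percent) against the standard error of its log2 fold for shade over W in control plants (y axis), 1 point for each of 38 genes, coloured by class. LHCB1.1, LHCB1.2 and LHCB1.5 stand above all genes without shared windows, whose errors reach 0.564.

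The set makes up a large part of the message pool of these seedlings. Without LHCB1.3, the 38 genes held 11.3% of the summed FPKM of all genes in CER6pro>>axr3-1 shade, 11.7% in CER6pro>>axr3-1 W, 11.7% in control shade and 12.6% in control W. In these groups 34, 35, 35 and 35 of the 38 genes were among the 100 nuclear genes with the highest FPKM. Apart from LHCA5 and LHCB4.3, the genes spanned 727 FPKM, for PSBO2 in control shade, to 8824 FPKM, for LHCB1.5 in control shade.

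By class, the LHCB genes held the largest part. They made up 4.07% of summed FPKM in CER6pro>>axr3-1 shade, 4.22% in CER6pro>>axr3-1 W, 4.28% in control shade and 4.50% in control W. Photosystem I subunits followed with 3.37%, 3.45%, 3.49% and 3.80% in the same groups. Photosystem II subunits held 2.35%, 2.47%, 2.35% and 2.57%, and LHCA genes 1.46%, 1.55%, 1.54% and 1.70%. Every class was lower in shade than in W within each genotype on this scale. The order of the classes was the same in all 4 groups. It was also the order of the number of genes measured, at 13, 11, 9 and 5. By median FPKM per gene, LHCA was highest in all 4 groups. In control W the medians were 3657 FPKM for LHCA, 3319 FPKM for photosystem I, 2894 FPKM for LHCB and 2251 FPKM for photosystem II.

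**Figure D2:**
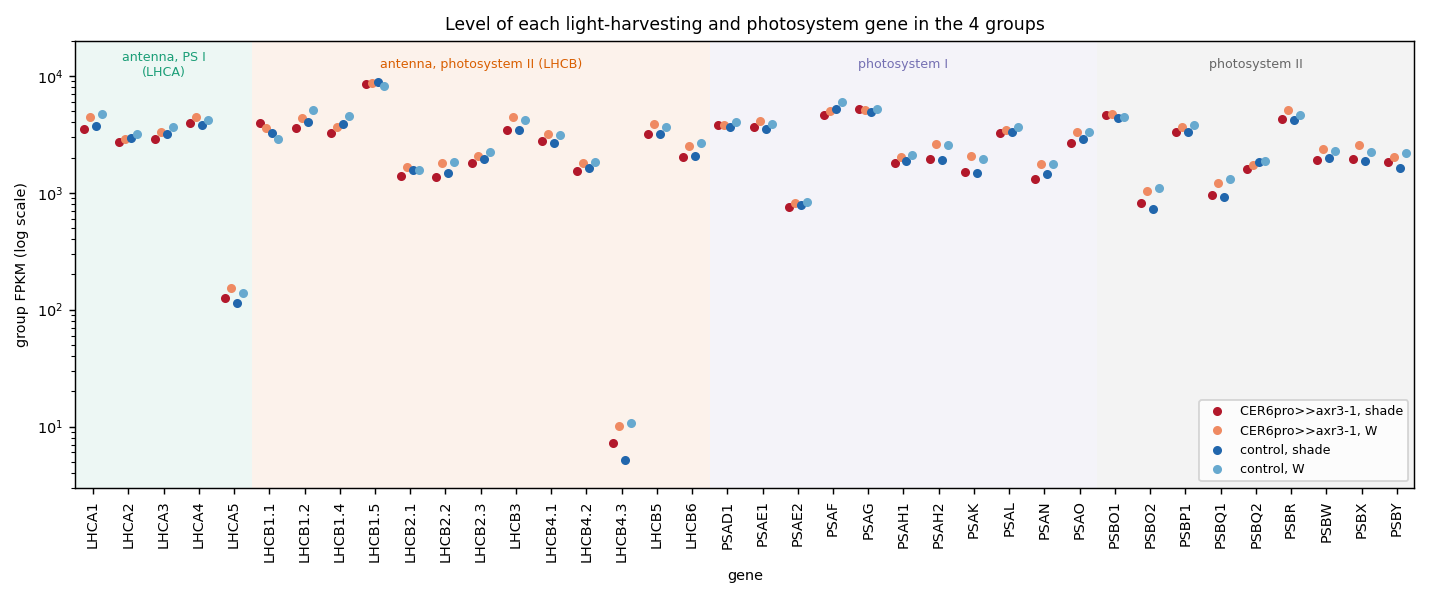
FPKM of each of 38 genes (y axis, log scale) in CER6pro>>axr3-1 shade, CER6pro>>axr3-1 W, control shade and control W, 1 point for each group's pooled value, with genes ordered by class. Most genes lie above 1000 FPKM with the 4 groups close together, LHCA5 lies at 113 to 155 FPKM, and LHCB4.3 at 5.15 to 10.7 FPKM with both shade groups below both W groups.

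Among the antenna genes of photosystem I, LHCA1 and LHCA4 encode a pair of proteins that bind as a dimer. LHCA1 (AT3G54890) had 3489 FPKM in CER6pro>>axr3-1 shade, 4447 FPKM in CER6pro>>axr3-1 W, 3717 FPKM in control shade and 4676 FPKM in control W. LHCA4 (AT3G47470) had 3937, 4494, 3767 and 4164 FPKM in the same order. Both were lower in shade than in W in both genotypes. LHCA5 (AT1G45474), which in Arabidopsis helps to join photosystem I to the NDH complex, was far lower than its 4 relatives, with 127 FPKM in CER6pro>>axr3-1 shade, 155 FPKM in CER6pro>>axr3-1 W, 113 FPKM in control shade and 140 FPKM in control W. LHCA2 and LHCA3 lay between 2706 and 3657 FPKM.

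The LHCB1, LHCB2 and LHCB3 proteins form the trimers of the major antenna, and LHCB4, LHCB5 and LHCB6 are the minor, monomeric antenna proteins. LHCB1.5 (AT2G34420) had the highest level of the 38 genes in every group, with 8494 FPKM in CER6pro>>axr3-1 shade, 8662 FPKM in CER6pro>>axr3-1 W, 8824 FPKM in control shade and 8206 FPKM in control W. LHCB1.1 (AT1G29920) had 3992, 3587, 3278 and 2894 FPKM in the same order, and was the highest of the set in log2 fold for shade over W in both genotypes, with the widest error. LHCB1.3 (AT1G29930) was listed at 12165 FPKM in control W and at 0 in the other 3 groups. The authors' table marks it HIDATA, Cuffdiff's code for a locus with too many fragments to be estimated, so the listed 0 is a failed estimate and no fold is given. Summed over the other 4 copies, LHCB1 reached 19362 FPKM in CER6pro>>axr3-1 shade, 20284 FPKM in CER6pro>>axr3-1 W, 20068 FPKM in control shade and 20728 FPKM in control W. The sum differed less between groups than LHCB1.1, LHCB1.2 and LHCB1.4 did. The 3 LHCB2 genes summed to 4558, 5491, 4972 and 5613 FPKM in the same order, lower in shade than in W in both genotypes.

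LHCB4.3 (AT2G40100) is the divergent copy of the LHCB4 genes, with 831 coding bases against 873 in LHCB4.1 and 864 in LHCB4.2. It had 7.21 FPKM in CER6pro>>axr3-1 shade, 10.05 FPKM in CER6pro>>axr3-1 W, 5.15 FPKM in control shade and 10.7 FPKM in control W. Both shade groups were below both W groups, and control shade was the lowest. LHCB4.1 stood 382 times above LHCB4.3 in CER6pro>>axr3-1 shade, 318 times in CER6pro>>axr3-1 W, 521 times in control shade and 292 times in control W. The ratio of LHCB4.1 to LHCB4.2 stayed between 1.65 and 1.81 in the 4 groups.

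The regions upstream of the 3 LHCB4 genes are shown because LHCB4.3 was the only gene of the set called between groups. Each is the 250 bases before the annotated gene start on the plus strand, from RefSeq TAIR10.1. Capitals mark matches, on either strand, to the G-box letters CACGTG, the I-box letters GATAAG or the CCAATC element bound by GLK factors.
LHCB4.3, chr2:16745378-16745627: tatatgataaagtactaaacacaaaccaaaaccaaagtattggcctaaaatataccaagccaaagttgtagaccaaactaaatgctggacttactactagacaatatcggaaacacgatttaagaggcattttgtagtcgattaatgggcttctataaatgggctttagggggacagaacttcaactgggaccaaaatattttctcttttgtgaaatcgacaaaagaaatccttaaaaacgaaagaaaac
LHCB4.1, chr5:208616-208865: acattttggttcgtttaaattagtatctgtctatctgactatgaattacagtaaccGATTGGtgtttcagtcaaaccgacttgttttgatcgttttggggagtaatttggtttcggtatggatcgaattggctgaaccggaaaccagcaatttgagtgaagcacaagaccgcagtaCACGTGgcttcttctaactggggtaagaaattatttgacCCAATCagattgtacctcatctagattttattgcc
LHCB4.2, chr3:2717307-2717556: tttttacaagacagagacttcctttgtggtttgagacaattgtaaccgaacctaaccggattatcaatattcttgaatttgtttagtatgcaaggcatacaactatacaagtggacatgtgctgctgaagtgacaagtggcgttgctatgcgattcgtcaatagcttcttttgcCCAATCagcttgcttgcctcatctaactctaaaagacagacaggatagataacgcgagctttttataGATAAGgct

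LHCB4.1 had a G-box match and a pair of CCAATC matches in this stretch, LHCB4.2 had 1 I-box match and 1 CCAATC match, and LHCB4.3 had none of these letters. Over all 40 genes, counting 250 bases before to 50 bases after the start on both strands, the G-box letters were found in 14 (35.0%), against 7.7% of 27443 promoters of the annotation. The I-box letters were found in 17 (42.5%) of the 40 and in 14.6% of all promoters, and CCAATC in 15 (37.5%) and 12.3%. The evening element AAAATATCT was found in 1 of the 40, LHCA5, which is 2.5%, and in 2.8% of all promoters. By class, the G-box letters were in 1 of 5 LHCA, 3 of 14 LHCB, 4 of 12 photosystem I and 6 of 9 photosystem II genes. The I-box letters were in 2 of 5 LHCA, 4 of 14 LHCB, 8 of 12 photosystem I and 3 of 9 photosystem II genes. CCAATC was in 3 of 5 LHCA, 8 of 14 LHCB, 1 of 12 photosystem I and 3 of 9 photosystem II genes. None of the 4 motifs is contained in another, and a match is a description of the sequence alone.

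Photosystem I subunits bind the mobile carriers and the antenna. PSAF (AT1G31330), which docks plastocyanin, had 4610 FPKM in CER6pro>>axr3-1 shade, 4986 FPKM in CER6pro>>axr3-1 W, 5185 FPKM in control shade and 5978 FPKM in control W. PSAG (AT1G55670), at the antenna side, was the steadiest gene of the set, with 5215, 5144, 4947 and 5191 FPKM in the same order, so that its highest group was 1.05 times its lowest. PSAK (AT1G30380), also an antenna-side subunit, had 1518 FPKM in CER6pro>>axr3-1 shade, 2059 FPKM in CER6pro>>axr3-1 W, 1463 FPKM in control shade and 1960 FPKM in control W. PSAK was lower in shade than in W in both genotypes, while PSAG was slightly higher in shade in CER6pro>>axr3-1 plants. PSAH2 (AT1G52230), needed for the docking of the mobile antenna, had 1954 FPKM in CER6pro>>axr3-1 shade, 2594 FPKM in CER6pro>>axr3-1 W, 1893 FPKM in control shade and 2581 FPKM in control W. PSAH2 stood 1.09 times above its copy PSAH1 in CER6pro>>axr3-1 shade, 1.29 times in CER6pro>>axr3-1 W, 1.01 times in control shade and 1.22 times in control W. PSAE2 (AT2G20260), the lower copy of a ferredoxin-side subunit, was lowest of the class, with 762, 812, 783 and 840 FPKM in the same order. The other photosystem I genes measured, PSAD1, PSAE1, PSAH1, PSAL, PSAN and PSAO, lay between 1300 and 4132 FPKM.

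The photosystem II genes encode the extrinsic proteins that hold the water-splitting site and a few small membrane subunits. PSBO1 and PSBO2 encode copies of the protein that stabilises the manganese cluster. PSBO1 (AT5G66570) had 4600 FPKM in CER6pro>>axr3-1 shade, 4731 FPKM in CER6pro>>axr3-1 W, 4350 FPKM in control shade and 4470 FPKM in control W. PSBO2 (AT3G50820) had 819, 1034, 727 and 1091 FPKM in the same order. The major copy thus changed little, while the minor copy was lower in both shade groups than in both W groups, and PSBO1 stood 5.62 times above PSBO2 in CER6pro>>axr3-1 shade, 4.58 times in CER6pro>>axr3-1 W, 5.98 times in control shade and 4.098 times in control W. The ratio of the PSBQ pair was also higher in shade, with PSBQ2 at 1.67 times PSBQ1 in CER6pro>>axr3-1 shade, 1.42 times in CER6pro>>axr3-1 W, 1.98 times in control shade and 1.44 times in control W. Neither PSBO2 nor PSBQ1 was called for shade over W in either genotype. PSBQ2 (AT4G05180) itself had 1599 FPKM in CER6pro>>axr3-1 shade, 1712 FPKM in CER6pro>>axr3-1 W, 1834 FPKM in control shade and 1867 FPKM in control W. Other copy pairs went the other way. PSAE1 stood 4.81 times above PSAE2 in CER6pro>>axr3-1 shade, 5.09 times in CER6pro>>axr3-1 W, 4.53 times in control shade and 4.64 times in control W. The ratio of PSAH2 to PSAH1, given above, was likewise lower in shade. These ratios have no replicate check, since the tables hold 1 value for each group.

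PSBR (AT1G79040), an extrinsic subunit of the water-splitting side, had 4275 FPKM in CER6pro>>axr3-1 shade, 5095 FPKM in CER6pro>>axr3-1 W, 4219 FPKM in control shade and 4632 FPKM in control W. PSBX (AT2G06520), a small membrane subunit, had 1961, 2580, 1870 and 2251 FPKM in the same order. Both had their highest level in CER6pro>>axr3-1 W and were lower in shade within each genotype. PSBP1, PSBQ1, PSBW and PSBY lay between 927 and 3781 FPKM.

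Shade was compared with W in control plants first, to see what a short exposure to shade did to these messages. Of the 38 genes, 35 had a log2 fold below 0, in all 4 classes, and the median was -0.20, while the median of all tested genes was 0.00. When FPKM was rescaled to the same sum in each group, 33 of 38 stayed below 0 and the median was -0.14. The median of all tested genes was then 0.07. Before rescaling, other genes with at least 500 FPKM in both groups, 133 in number, had a median of -0.09. The class medians were -0.20 for LHCA, -0.21 for LHCB, -0.18 for photosystem I and -0.20 for photosystem II, and differences between classes were not tested. The 7 mesophyll and cotyledon markers, which are all genes of carbon fixation, were likewise all below 0, with a median of -0.48. Their part in the medians of the set was not tested. In whole seedlings fewer green cells and less RNA in each cell cannot be told apart. A median over genes carries no test, since genes are not replicates.

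LHCB4.3 was the single gene of the 38 that passed the test, and it fell, with 5.15 FPKM in control shade against 10.7 FPKM in control W. Its log2 fold was -1.06 ± 0.33 (SE), with a 95% interval of -1.71 to -0.41. In the authors' deposited table, from Cuffdiff, p was 0.00045 and q was 0.0195. In this comparison 2.85% of all tested genes were called at q under 0.05, 1.61% as lower, so 1 call among 38 genes is near the background. At a q threshold of 0.01 the gene was not called.

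The genes below LHCB4.3 in size of fold did not pass. PSBO2 had a log2 fold of -0.58 ± 0.32 (SE), and its p in the authors' deposited table was 0.0618 with a q of 0.616. PSAH2 had a log2 fold of -0.45 ± 0.22 (SE) with a 95% interval of -0.88 to -0.01, although p was 0.139 in the authors' deposited table, and a standard error taken from that p gives an interval that includes 0. LHCA1 had a log2 fold of -0.33 ± 0.56 (SE), and LHCB1.1, the highest of the 38, had 0.18 ± 1.09 (SE). For 22 of 38 genes the 95% interval lay within a 2-fold change in both directions, so a 2-fold fall could not be set aside for the others at this precision.

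**Figure D3:**
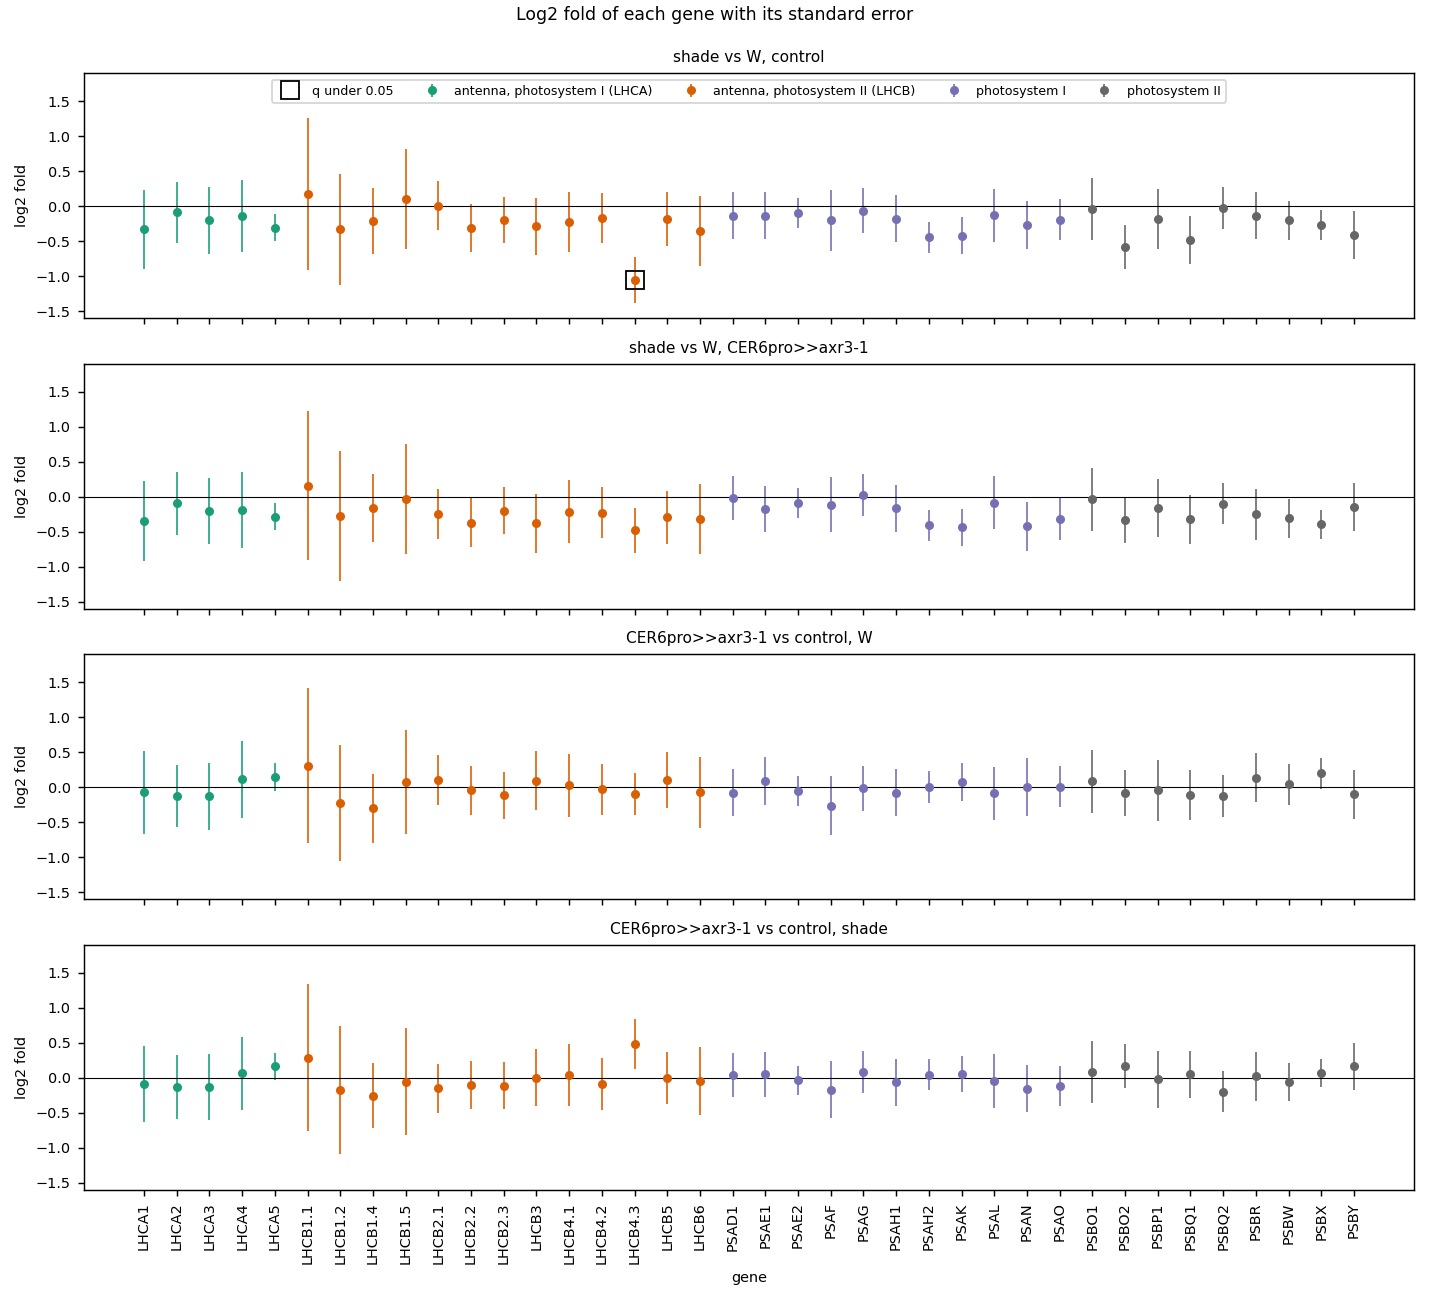
Log2 fold of each of 38 genes (y axis) with its standard error (bars), in 4 panels for shade over W in control, shade over W in CER6pro>>axr3-1, CER6pro>>axr3-1 over control in W and CER6pro>>axr3-1 over control in shade, coloured by class. In both shade panels nearly all points lie slightly below 0, and LHCB4.3 in control plants, at -1.06, is the only point boxed as called.

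The same exposure was then compared within CER6pro>>axr3-1 plants. Of the 38 genes, 36 had a log2 fold below 0 and the median was -0.22, against 0.02 for all tested genes and 0.01 for the 134 other genes with at least 500 FPKM. Rescaling FPKM to the same sum raised all log2 folds of this comparison by 0.13, after which 28 of 38 genes were below 0, with a median of -0.09 against 0.15 for all tested genes. The class medians were -0.20 for LHCA, -0.25 for LHCB, -0.17 for photosystem I and -0.25 for photosystem II, and after rescaling they were -0.07, -0.12, -0.04 and -0.13. Relative to all genes the median stood at -0.24.

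No gene of the set was called in CER6pro>>axr3-1 plants in the authors' deposited table from Cuffdiff, and 0 had an unadjusted p under 0.05, while 2.52% of all tested genes were called. LHCB4.3 had 7.21 FPKM in CER6pro>>axr3-1 shade against 10.05 FPKM in CER6pro>>axr3-1 W, a log2 fold of -0.48 ± 0.32 (SE). Its p in the authors' deposited table was 0.0716 and its q was 0.667. PSAK had a log2 fold of -0.44 ± 0.27 (SE), PSBX of -0.40 ± 0.21 (SE) and LHCA1 of -0.35 ± 0.57 (SE). For 23 of 38 genes the 95% interval lay within a 2-fold change in both directions.

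Whether the shade response differed between the genotypes was tested gene by gene, with a z test of the difference of the log2 folds and Benjamini-Hochberg adjustment over 19989 genes. Of all genes 0.62% passed, and 0 of the 38 did, with 0 at an unadjusted p under 0.05. The differences, CER6pro>>axr3-1 minus control, lay above 0 for 19 genes and below 0 for 19. LHCB4.3 had the smallest p of the set, with a shade response of -0.48 in CER6pro>>axr3-1 plants and -1.06 in control plants, a difference of 0.58 ± 0.46 (SE) and a z-test p of 0.210. Its 95% interval ran from -0.33 to 1.48, so the call in control plants and its absence in CER6pro>>axr3-1 plants do not show that the responses differ. For 12 of 38 genes the interval of the difference lay within a 2-fold change in both directions.

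CER6pro>>axr3-1 plants were compared with control plants in W light to see what axr3-1 driven by the CER6 promoter did without shade. The 38 genes had a median log2 fold of -0.04, with 16 above 0 and 22 below, and the median of all tested genes was 0.01. Rescaling to the same sum moved every gene of this comparison by -0.09, after which the median was -0.12 with 30 of 38 below 0, and the median of all tested genes was -0.08. The 10 highest genes held 15.0% of summed FPKM in CER6pro>>axr3-1 W and 11.9% in control W, and their part in this shift was not tested. The class medians were -0.07 for LHCA, -0.03 for LHCB, -0.01 for photosystem I and -0.05 for photosystem II. In the authors' deposited table from Cuffdiff 0 of the 38 genes were called and 0 had an unadjusted p under 0.05, while 2.16% of all tested genes were called.

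The folds farthest from 0 in W were those of LHCB1.1 and LHCB1.4, and LHCB1.1 had the widest error of the 38 genes. LHCB1.1 had 3587 FPKM in CER6pro>>axr3-1 W against 2894 FPKM in control W, a log2 fold of 0.31 ± 1.11 (SE). LHCB1.4 had 3655 FPKM in CER6pro>>axr3-1 W against 4510 FPKM in control W, a log2 fold of -0.30 ± 0.50 (SE). PSAF had a log2 fold of -0.26 ± 0.43 (SE), PSBX of 0.20 ± 0.23 (SE) and LHCA5 of 0.14 ± 0.20 (SE). For 29 of 38 genes the 95% interval lay within a 2-fold change in both directions.

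In shade, CER6pro>>axr3-1 plants likewise differed little from control plants in these genes. The median log2 fold was -0.03, with 16 above 0 and 22 below, against 0.01 for all tested genes and 0.05 for the 134 other genes with at least 500 FPKM. The class medians were -0.09 for LHCA, -0.06 for LHCB, -0.04 for photosystem I and 0.05 for photosystem II, and rescaling turned none of them. In the authors' deposited table from Cuffdiff 0 of the 38 genes were called and 0 had an unadjusted p under 0.05, while 1.25% of all tested genes were called. LHCB4.3 had 7.21 FPKM in CER6pro>>axr3-1 shade against 5.15 FPKM in control shade, a log2 fold of 0.48 ± 0.36 (SE). PSBO2 had a log2 fold of 0.17 ± 0.32 (SE), PSBQ2 of -0.20 ± 0.30 (SE), PSAF of -0.17 ± 0.41 (SE) and LHCA5 of 0.17 ± 0.19 (SE). For 29 of 38 genes the 95% interval lay within a 2-fold change in both directions.

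**Figure D4:**
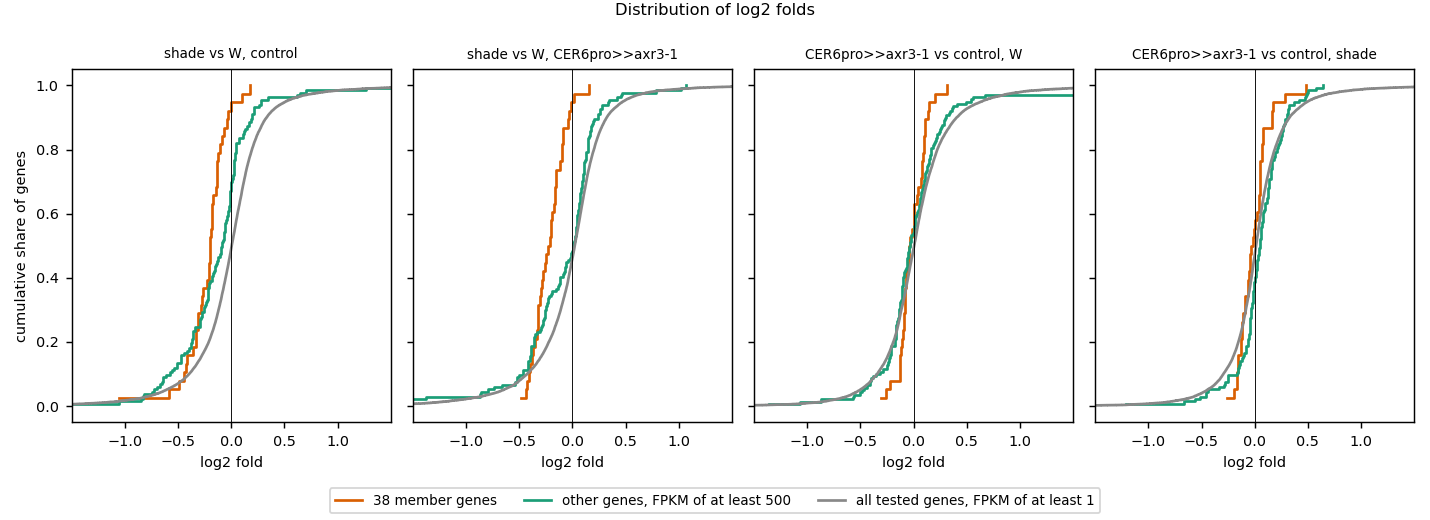
Cumulative share of genes (y axis) against log2 fold (x axis, shown between -1.5 and 1.5) in the 4 comparisons, for the 38 antenna and photosystem genes, for other genes with at least 500 FPKM in both groups and for all tested genes with at least 1 FPKM in both groups. In both shade comparisons the line of the 38 genes lies left of 0, with medians of -0.20 and -0.22. In the comparisons of genotype its median is -0.04 in W and -0.03 in shade.

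The tables also hold both crossed pairs of groups, which differ in genotype and light together. In CER6pro>>axr3-1 shade over control W, the median of the 38 genes was -0.25 and 0 genes were called, where 4.75% of all tested genes were called in the authors' deposited table from Cuffdiff. In that pair 1 gene, LHCB4.3, had an unadjusted p under 0.05, at 0.0301 with a q of 0.410 in the authors' deposited table. In CER6pro>>axr3-1 W over control shade the median was 0.21, and LHCB4.3 was called as higher, with a log2 fold of 0.96 ± 0.34 (SE). In the authors' deposited table its p was 0.00085 and its q was 0.0326, while 3.94% of all tested genes were called, 2.73% as higher. LHCA5 also had an unadjusted Cuffdiff p under 0.05 in that pair, at 0.0406 with a q of 0.489, and was not called. Its log2 fold was 0.45 ± 0.20 (SE). Both calls of LHCB4.3 use the same control shade group, so they are not independent of each other.

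Other nuclear genes of the photosynthetic apparatus were read beside the antenna and photosystem genes. Calls are again those at a Cuffdiff q under 0.05, and the share called over all tested genes was 2.85% for shade over W in control plants, 2.52% for shade over W in CER6pro>>axr3-1 plants, 2.16% for CER6pro>>axr3-1 over control in W and 1.25% for CER6pro>>axr3-1 over control in shade. No test of the lists against these shares was made. Among genes of chlorophyll synthesis, 1 rose and 1 fell of 18 tested in control plants in shade, and again 1 rose and 1 fell of 18 in CER6pro>>axr3-1 plants. HEMA1, which makes the first committed step of tetrapyrrole synthesis, fell in shade, with 91.9 FPKM in control shade against 183 FPKM in control W, a log2 fold of -0.997 ± 0.23 (SE). In CER6pro>>axr3-1 plants HEMA1 fell to 103 FPKM in shade against 192 FPKM in W, a log2 fold of -0.89 ± 0.23 (SE). PORA, a protochlorophyllide reductase of dark-grown seedlings, rose at a low level, with 5.09 FPKM in control shade against 0.393 FPKM in control W. In CER6pro>>axr3-1 plants PORA had 2.48 FPKM in shade against 0.626 FPKM in W. PORB, the form used in the light, fell in CER6pro>>axr3-1 W, with 246 FPKM against 503 FPKM in control W, a log2 fold of -1.03 ± 0.31 (SE), and it was the 1 call of 17 tested there.

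Carbon fixation genes had lower medians in shade than the antenna genes. All 17 tested had a log2 fold below 0 in control plants, with a median of -0.51, and 2 fell by the test. RBCS1B, a gene for the small subunit of Rubisco, had 304 FPKM in control shade against 699 FPKM in control W, a log2 fold of -1.20 ± 0.23 (SE). FBA1, a plastid aldolase, had 246 FPKM in control shade against 491 FPKM in control W, a log2 fold of -0.997 ± 0.33 (SE). In CER6pro>>axr3-1 plants 0 of 17 passed in the Cuffdiff test and 3 had an unadjusted p under 0.05, with a median of -0.36 that became -0.24 with 1 of 17 above 0 on rescaling. CER6pro>>axr3-1 plants had 0 of 17 called against control plants in W and in shade, with medians of 0.10 and 0.28, which rescaling brought to 0.01 and 0.26. The 7 mesophyll markers, whose sums were also higher in CER6pro>>axr3-1 plants, are all among these carbon fixation genes. RBCS1A, the largest part of those sums, had a log2 fold, CER6pro>>axr3-1 over control, of 0.14 ± 1.13 (SE) in W. In shade its fold was 0.32 ± 1.25 (SE).

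Electron transport and ATP synthase genes had a median log2 fold of -0.32 in control plants in shade, where 1 of 12 fell. That gene was PETE1, the minor plastocyanin, with 145 FPKM in control shade against 271 FPKM in control W, a log2 fold of -0.91 ± 0.19 (SE). Among genes of photoprotection and assembly, 2 of 22 fell in control plants and 1 of 22 in CER6pro>>axr3-1 plants. ELIP1 and ELIP2 encode early light-induced proteins related to the antenna proteins. ELIP1 had 31.9 FPKM in control shade against 68.1 FPKM in control W, and ELIP2 had 16.6 against 37.7 FPKM in the same groups, log2 folds of -1.09 ± 0.19 (SE) and -1.19 ± 0.24 (SE). ELIP2 also fell in CER6pro>>axr3-1 plants, with 22.3 FPKM in shade against 43.4 FPKM in W. PSBS, the sensor of energy-dependent quenching, had 1025 FPKM in CER6pro>>axr3-1 shade, 1310 FPKM in CER6pro>>axr3-1 W, 924 FPKM in control shade and 1214 FPKM in control W, and was not called in the 4 comparisons.

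Of 13 regulators of chloroplast genes, 1 rose in control plants in shade, 1 fell in CER6pro>>axr3-1 plants in shade, 2 rose in CER6pro>>axr3-1 plants in W and 0 passed between the genotypes in shade. GLK1 and GLK2 are the factors that act directly on antenna gene promoters. GLK1 had 69.0 FPKM in CER6pro>>axr3-1 shade, 87.0 FPKM in CER6pro>>axr3-1 W, 68.5 FPKM in control shade and 102 FPKM in control W, and GLK2 had 87.2, 104, 91.1 and 92.6 FPKM in the same order. Neither was called, and the p of GLK1 for shade over W in control plants was 0.0098, with a q of 0.197, in the authors' deposited table from Cuffdiff. PIF3, a repressor of greening in the dark, had 25.8 FPKM in CER6pro>>axr3-1 shade, 22.6 FPKM in CER6pro>>axr3-1 W, 19.3 FPKM in control shade and 9.83 FPKM in control W. It rose in control shade over control W, by 0.97 ± 0.25 (SE) on the log2 scale, and in CER6pro>>axr3-1 W over control W, by 1.203 ± 0.25 (SE). SIG5, a plastid sigma factor, had 25.5 FPKM in CER6pro>>axr3-1 shade, 43.0 FPKM in CER6pro>>axr3-1 W, 21.0 FPKM in control shade and 23.9 FPKM in control W. It rose in CER6pro>>axr3-1 W over control W, by 0.85 ± 0.19 (SE), and fell in CER6pro>>axr3-1 shade against CER6pro>>axr3-1 W, with a log2 fold of -0.76 ± 0.19 (SE).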

How the data were processed

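Per the submitters' processing notes, bases were called with CASAVA 1.8.2, reads were aligned to TAIR10 with TopHat2 2.0.9 and Bowtie2 2.1.0, and levels were estimated and compared with Cufflinks and Cuffdiff, whose versions are not given in the sources used here. Each of the 6 Arabidopsis tables used here compares a pair of groups. The FPKM values are the authors' deposited pooled values, 1 for each group of 4 libraries, so no SD can be given and the depth of the libraries is unknown. The score is the test statistic that the authors deposited for each gene. The p-value and q-value are the authors' deposited Cuffdiff values, and the smallest p is 5e-05. The log2 fold the authors deposited was compared with a log2 ratio computed here from FPKM.

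Log2 folds were computed here from the group FPKM values with no pseudocount. A gene was called at a deposited q under 0.05 among genes marked as tested. Standard errors were the log2 fold divided by the deposited statistic, multiplied by a factor of 0.558 to 0.564 that brings the statistic to the normal deviate of the deposited p, and 95% intervals are normal. The factor is a single median for each comparison and does not match each gene. For shade over W in control plants, standard errors taken from p were, at the median, 0.86 times those given for LHCA and 0.98 for LHCB. For photosystem I they were 1.16 times, and for photosystem II 1.12 times. They put 21 of 38 genes within a 2-fold change there, against 22. The difference of shade responses was a two-sided z test over all genes with at least 1 FPKM, tested on simulated data. The simulated noise was normal and took the same standard errors that the test uses. It therefore checked the calculation and could not check the standard errors themselves. The labels do not say that libraries came from separate cultures, so the spread behind the p-values is that between libraries and may be technical. Per the labels, RNA was polyadenylated, and ages, light treatments and genotypes were taken from the labels and the study design.

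Sequences came from RefSeq TAIR10.1. Every 1 of 21223 genes alone in its locus overlapped the reference gene of the same identifier, while 41.84% shared an end, so gene bounds differ. Members and lists were chosen with earlier results of these data known. Named genes were called members, the 2 highest and 1 lowest of each class in control W, the largest fold of each class in each main comparison, copy families as sums, and up to 4 called genes of each other list, with GLK1, GLK2, PSBS and AXR3 always; values of other members given as ranges or for copy pairs were chosen after seeing them. Python 3.11.15, numpy 2.4.6, pandas 2.3.3, scipy 1.17.1 and matplotlib 3.10.9 were used. Alternatives were a q of 0.01, a pseudocount of 1, centring, rescaling, filters on FPKM, the deposited log2 fold and leaving out LHCB1 and LHCB2.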

Additional observations from a re-analysis of the deposited data

How the results depend on the processing

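At a q under 0.01 the number of called genes of the set was 0 in shade over W in control plants and 0 in CER6pro>>axr3-1 W over control shade, where it was 1 in each at 0.05. The other 54 alternative values kept their count of calls or, for medians, their sign. They covered a pseudocount, centring, rescaling, the deposited log2 fold, filters on FPKM and leaving out LHCB1 and LHCB2. Where 0 genes were called, a q or adjusted p under 0.01 or leaving out LHCB1 and LHCB2 could only give 0 again. The deposited log2 fold repeats the ratio of the same FPKM values and could not move a median either. The median of other genes with at least 500 FPKM was also subtracted, which was added after seeing the data. Subtracting that median left -0.11 for shade over W in control plants and -0.23 in CER6pro>>axr3-1 plants. Of the single genes, 9 values lost their call, and 138 kept their call or, where only direction was checked, their direction. The call was checked again for a q of 0.01, for p adjusted within a single comparison and for the filter on FPKM. A pseudocount, centring, rescaling and the deposited log2 fold were checked for direction alone, so they could not lose a call. At a q under 0.01 the call was lost for LHCB4.3 in both comparisons that called it, for FBA1 in shade over W in control plants, for HEMA1, PORA and SIG5 in shade over W in CER6pro>>axr3-1 plants, and for PORB in CER6pro>>axr3-1 W over control W. A filter of 1 FPKM in both groups left out PORA in both genotypes. No paired analysis was possible because the tables hold 1 pooled value for each group, and for the same reason leaving out each replicate was not run. Depth per library is unknown.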

Other observations

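Markers of cell types outside the photosynthetic tissue gave a few calls. PDF1, an epidermis marker, had 285 FPKM in CER6pro>>axr3-1 shade, 202 FPKM in CER6pro>>axr3-1 W, 394 FPKM in control shade and 411 FPKM in control W, and it fell in CER6pro>>axr3-1 W over control W, with a log2 fold of -1.03 ± 0.27 (SE). It was the 1 called of 7 epidermis markers, which were all below 0 in that comparison, where 2.16% of all tested genes were called. KAT1, a guard cell potassium channel, had 44.6 FPKM in CER6pro>>axr3-1 shade, 11.3 FPKM in CER6pro>>axr3-1 W, 27.3 FPKM in control shade and 16.2 FPKM in control W, and it rose in CER6pro>>axr3-1 shade over CER6pro>>axr3-1 W, by 1.98 ± 0.31 (SE) on the log2 scale, as the 1 called of 10 stomatal markers, where 2.52% of all tested genes were called. The 10 stomatal markers went both ways in that comparison, with 5 above 0, 5 below 0 and a median log2 fold of -0.007. Of 8 vascular markers 0 were called by Cuffdiff in the 4 comparisons, and 0 had an unadjusted p under 0.05.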
